A study of Mus musculus with 4 samples.

Results

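The Schlafen genes are a mammalian gene family whose mouse members lie side by side on chromosome 11. The 7 genes Slfn1, Slfn2, Slfn3, Slfn4, Slfn5, Slfn8 and Slfn9 were taken by gene symbol from the count tables, and each matched 1 of the 53465 listed genes. RNA-Seq had been performed on 1° mouse OGCs, which are primary cultures of oligodendroglial cells from the forebrain of P2 to P4 mice, after 3 days of differentiation (3ddiff). The comparison asks how the transcriptome differs when Zfp276, a zinc finger protein of the oligodendrocyte lineage, is deleted. The ctrl cells were Zfp276 flox/flox and the Zfp276cko cells were Sox10::Cre tg; Zfp276 flox/flox, so that both genotypes carried the allele with loxP sites around exons 2 to 5 and differed by the Cre transgene. Cre was under the control of Sox10, a gene of the oligodendroglial lineage. The methods state that this deletes Zfp276 in OGCs of the CNS. Recombination in other cells of a culture was not tested. According to the methods the mice had mixed C3H and C57Bl/6J ancestry, and those used for OPC cultures additionally had a Rosa26 stopflox tdTomato allele. Each of the 2 libraries per genotype stems from a separate preparation that pooled 3 mice.

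Schlafen proteins share a core domain that binds and, in several members, cuts RNA, including tRNA. By size they form a short group (Slfn1 and Slfn2), an intermediate group (Slfn3 and Slfn4) and a long group (Slfn5, Slfn8 and Slfn9), and the long members carry an additional helicase-like part. Many of them are induced by type I interferon and are best known from T cells and myeloid cells, where they influence quiescence, proliferation and the response to viruses.

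The libraries held 21068322 to 26599809 counted reads, and 22017 to 23677 genes per library had a count. Zfp276 had 1648 and 2230 normalized counts in the ctrl replicates and 490 and 503 in the Zfp276cko replicates (log2 fold change −1.97, SE 0.18, adjusted p = 0.0962 in edgeR's quasi-likelihood test, adjusted after Benjamini and Hochberg). The count per gene includes exons outside the deleted stretch. The ctrl libraries stood apart from each other: 12.6% of the 14324 genes that averaged 20 or more normalized counts differed at least 2-fold between them, compared to 0.307% between the Zfp276cko libraries. All 12 oligodendrocyte markers were detected, with a sum of 255460 to 484180 normalized counts per library. The 18 microglia and macrophage markers were detected as well and added up to 111630 and 68683 normalized counts in ctrl OGCs, versus 81781 and 82988 in Zfp276cko OGCs.

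Upstream sequences are shown for 4 members that together received nearly all Schlafen reads, because they show which of them carry a motif that interferon-activated transcription factors recognise. Windows of 250 bases before and 50 after the start of each RefSeq gene (GRCm38.p6) were searched on both strands for the interferon-stimulated response element (ISRE, GAAANNGAAA), for the shorter motif AANNGAAA of interferon regulatory factors, which overlaps with the end of the ISRE, and for the STAT dimer motif TTCNNNGAA. Capitals mark the ISRE and motifs of interferon regulatory factors, and each stretch is written in the orientation in which the gene is transcribed, so that the ISRE of Slfn9 and Slfn8 reads as its reverse complement. The stretches are chr11:82991831-82991910 (minus strand) for Slfn9, chr11:83020811-83020890 (minus strand) for Slfn8, chr11:82951913-82951984 (plus strand) for Slfn5 and chr11:83064992-83065111 (plus strand) for Slfn2.
Slfn9: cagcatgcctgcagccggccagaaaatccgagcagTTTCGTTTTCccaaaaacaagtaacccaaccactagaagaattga
Slfn8: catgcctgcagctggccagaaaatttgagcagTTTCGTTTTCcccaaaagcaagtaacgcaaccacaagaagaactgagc
Slfn5: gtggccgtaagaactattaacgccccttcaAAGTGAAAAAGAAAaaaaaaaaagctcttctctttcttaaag
Slfn2: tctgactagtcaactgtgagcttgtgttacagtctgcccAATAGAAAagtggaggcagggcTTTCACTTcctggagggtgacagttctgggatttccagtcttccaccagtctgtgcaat

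A gene was counted if any of its windows held the motif. The ISRE letters were found in 3 of 7 members, all of the long group. They were found in 3.99% of all 27025 gene symbols and in 3.44% of the 32851 windows of all genes. In Slfn9 the match began 45 bases before the start, in Slfn8 48 bases before the first of its RefSeq starts and in Slfn5 155 bases before the RefSeq start. The GENCODE annotation starts Slfn5 further upstream, at 82951349. By that annotation the Slfn5 match lies inside the gene, outside its exons. The same 10 letters stand in Slfn9 and Slfn8, and the 250 bases upstream of these genes were identical in 210 of 262 aligned columns (80.2%). The other pairs among the members had between 45.5% and 53.4% identity. The shorter motif was found in 7 of 7 members and in 26.7% of all gene symbols (23.9% of all windows). The STAT dimer motif was found in 0 of 7 members and in 9.55% of all gene symbols (8.30% of all windows). These matches describe letters in a window and do not show binding.

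In the GENCODE annotation of mm10 the members span a cluster on chromosome 11. Slfn5 lies at 82951349 to 82964840 (plus strand), Slfn9 at 82978390 to 82991830 (minus strand) and Slfn8 at 83002158 to 83020810 (minus strand). They are followed by Slfn2 at 83065112 to 83070678, Slfn1 at 83116849 to 83122670, Slfn4 at 83175186 to 83190216 and Slfn3 at 83191330 to 83215154, all on the plus strand. The merged exons differ in length between 1664 bases in Slfn2 and 6326 bases in Slfn5. The members together received 2290 and 1319 reads in the ctrl libraries and 7206 and 7747 in the Zfp276cko libraries, which is 107.45, 62.61, 285.21 and 291.24 CPM, the usual scaling of counts to library size.

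On the scale of CPM per kilobase of exon, Slfn2 had the highest level, with 30.8 ± 1.85 (SD, n = 2) in ctrl and 69.3 ± 1.05 in Zfp276cko cells. Slfn5 followed in Zfp276cko cells with 15.8 ± 0.656. Slfn8 with 6.11 ± 0.0724 and Slfn9 with 5.88 ± 0.266 came next, and the ranges of their libraries overlapped. On the same scale Slfn3 had 0.484 ± 0.188, Slfn4 0.454 ± 0.110 and Slfn1 0.0903 ± 0.0175 in Zfp276cko cells, of which Slfn3 and Slfn4 overlapped. In ctrl cells the order below Slfn2 was not resolved: Slfn5 (3.16 ± 4.11), Slfn9 (1.80 ± 0.230) and Slfn8 (1.42 ± 1.31) overlapped, as did Slfn3, Slfn4 and Slfn1.

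**Figure D1:**
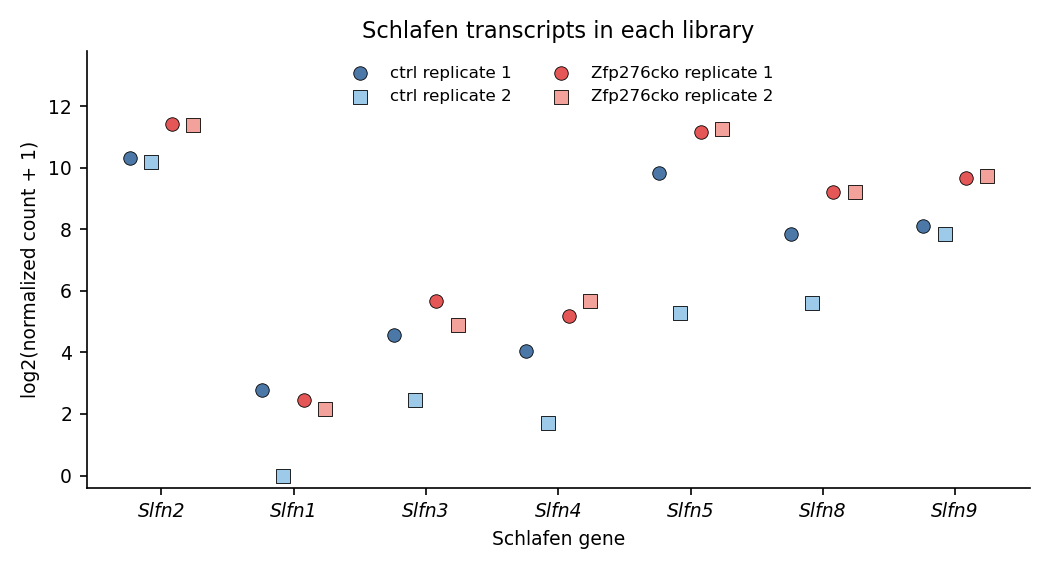
Normalized counts of the 7 Schlafen genes in each of the 4 libraries, on a log2 axis after addition of 1; each point is 1 library. Both Zfp276cko libraries lie above both ctrl libraries for every gene except Slfn1, and the ctrl points are far apart for Slfn5 (907 and 38.3) and close for Slfn2 (1264 and 1161).

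When the genotypes were compared, each Zfp276cko library had more normalized counts than each ctrl library for Slfn2, Slfn3, Slfn4, Slfn5, Slfn8 and Slfn9, with mean levels 2.25-fold (Slfn2) to 4.99-fold (Slfn5) those of ctrl. Such a separation was found for 6 of the 6 tested members and in 26.8% of the 15766 tested genes. Slfn1 was below the filter on low counts and was not tested. Slfn3 and Slfn4 passed that filter only through the Zfp276cko libraries, in which they are high. The filter therefore favoured their separation. It also favoured the passing of Slfn4 at the unadjusted p and the median over the tested members, both given below. In edgeR's quasi-likelihood test 0 of 6 members passed an adjusted p of 0.05, and neither did any other gene (0% called higher), while the unadjusted p was 0.05 or lower in 2464 genes. When an unadjusted p of at most 0.05 was combined with thresholds of 0.6 on the log2 fold change and 20 on the mean normalized count, 4 members passed (Slfn2, Slfn4, Slfn8 and Slfn9), next to 5.11% of all tested genes. DESeq2 called 3 members (Slfn2, Slfn8 and Slfn9) and 2.8% of all genes it tested as higher. Limma voom with quality weights per genotype called 2 (Slfn2 and Slfn9) and 0.844% of all tested genes. The median log2 fold change was 1.91 over the 6 tested members and −0.0013 over all tested genes.

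Among the short members, Slfn2, which protects tRNAs from cleavage and is required for T cell quiescence, was the most abundant Schlafen gene. It had 1264 and 1161 normalized counts in ctrl libraries, against 2753 and 2695 in those of Zfp276cko. The replicates of each genotype lay close together and the genotypes did not overlap. Its log2 fold change was 1.17 (SE 0.09, adjusted p = 0.0962 in edgeR's quasi-likelihood test and 3.34e-10 in DESeq2). Slfn1, a regulator of thymocyte growth, had 5 and 0 reads in ctrl and 5 and 4 reads in Zfp276cko libraries. These values overlapped between the genotypes and are too low for a comparison.

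The intermediate members had few reads. Slfn4, known from myeloid cells, had 13 and 2 reads in ctrl and 39 and 58 in Zfp276cko libraries (log2 fold change 2.27, SE 0.82, adjusted p = 0.314 in edgeR's quasi-likelihood test). Slfn3, best studied in T cells and intestinal epithelium, had 19 and 4 reads in ctrl and 55 and 33 in Zfp276cko libraries (log2 fold change 1.53, SE 0.80, adjusted p = 0.442). For both genes the ctrl values were several-fold apart. The genotypes did not overlap, as in 26.8% of all tested genes with higher Zfp276cko values. The filter favoured this, because both genes passed it only through the Zfp276cko libraries.

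The long members differed in the spread of their ctrl values. Slfn9 had 277 and 231 normalized counts in the ctrl replicates and 803 and 856 in the Zfp276cko replicates (log2 fold change 1.71, SE 0.16, adjusted p = 0.0962 in edgeR's quasi-likelihood test and 4.15e-11 in DESeq2). Like Slfn2 it had ctrl replicates close to each other and well below the Zfp276cko values. Slfn8 had 227 and 47.3 normalized counts in ctrl OGCs, versus 586 and 596 in Zfp276cko OGCs (log2 fold change 2.11, SE 0.75, adjusted p = 0.312 in edgeR and 0.0338 in DESeq2). Slfn5, whose human counterpart restrains interferon-driven transcription, had 907 and 38.3 normalized counts in ctrl libraries, against 2288 and 2427 in those of Zfp276cko (log2 fold change 2.32, SE 1.30, adjusted p = 0.469 in edgeR and 0.646 in DESeq2). Slfn5 had the largest difference of means and the largest standard error of the 6 tested members.

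**Figure D2:**
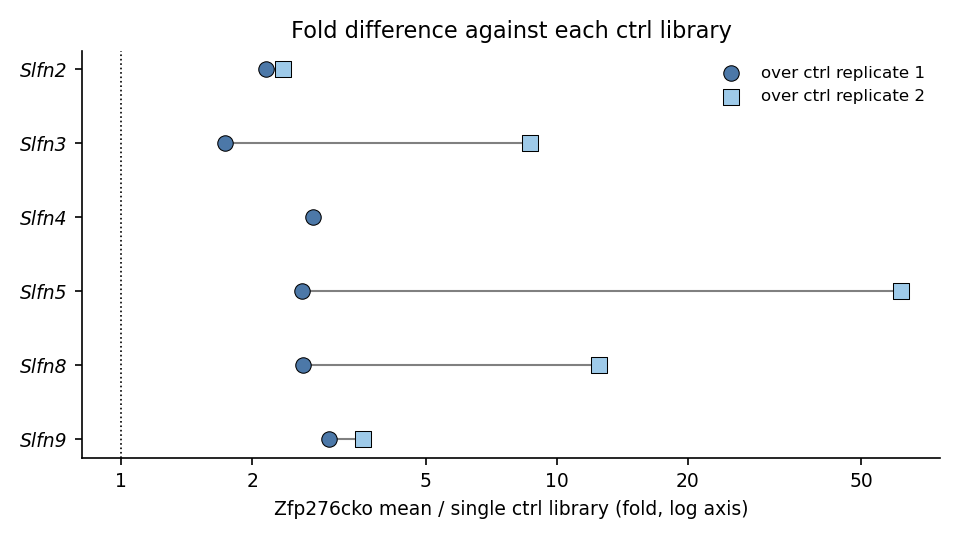
Fold difference of the mean of the Zfp276cko libraries over ctrl replicate 1 (circles) and over ctrl replicate 2 (squares) for the 6 tested Schlafen genes, on a log axis; the dotted line marks equal levels and no point is drawn over a ctrl count of 3 or fewer. Slfn2 (2.15 and 2.35) and Slfn9 (3.00 and 3.59) are alike over both ctrl libraries, while Slfn5 ranges from 2.60 to 61.6.

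The size of the difference depended on the ctrl library for Slfn3, Slfn4, Slfn5 and Slfn8. Over ctrl replicate 1 the Zfp276cko mean was 1.73-fold (Slfn3) to 3.00-fold (Slfn9), and over ctrl replicate 2 it was 2.35-fold for Slfn2, 12.5-fold for Slfn8 and 61.6-fold for Slfn5. A fit without ctrl replicate 1 gave log2 fold changes of 3.08 for Slfn3, 4.18 for Slfn4, 5.94 for Slfn5 and 3.64 for Slfn8, and one without ctrl replicate 2 gave 0.77, 1.45, 1.36 and 1.37. Slfn2 (1.23 and 1.09) and Slfn9 (1.85 and 1.57) moved little. Slfn3 and Slfn4 passed the filter of the fit without ctrl replicate 1 only through the Zfp276cko libraries, which favoured their difference there. In these fits the remaining ctrl library is assumed to vary like the Zfp276cko pair. Calls from the fits without a ctrl library are not reported here. Without either Zfp276cko library 0 members were called.

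**Figure D3:**
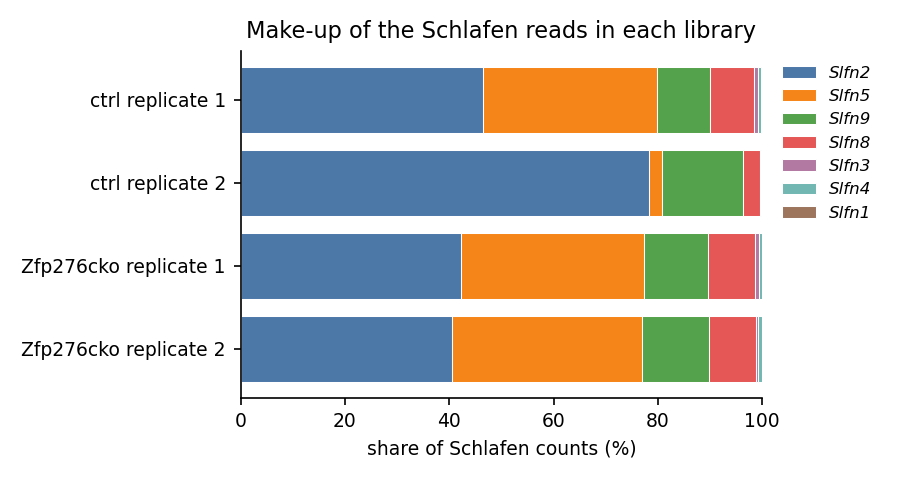
Share of each member in all reads of the 7 Schlafen genes, in percent, for each library. Slfn2 makes up 46.5% and 78.2% in the ctrl libraries and 42.2% and 40.5% in the Zfp276cko libraries, and Slfn5 33.4%, 2.58%, 35.1% and 36.5%.

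The composition of the family was alike in ctrl replicate 1 and both Zfp276cko libraries. Slfn2 made up 46.5% of the Schlafen reads in ctrl replicate 1, 42.2% and 40.5% in the Zfp276cko libraries and 78.2% in ctrl replicate 2. Slfn5 had a share of 33.4% in ctrl replicate 1, 35.1% and 36.5% in the Zfp276cko libraries and 2.58% in ctrl replicate 2. Slfn9 varied between 10.2% and 15.5%, and Slfn8 between 3.18% and 8.99%. Slfn1, Slfn3 and Slfn4 each stayed below 1% in every library. In ctrl replicate 2 the family was therefore both lower in total and shifted towards Slfn2.

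Interferon signalling genes from a list of 15 were examined next to the family. Ifnb1, which encodes interferon beta, had 1 and 0 reads in ctrl and 28 and 26 in Zfp276cko libraries. The receptor genes Ifnar1 and Ifnar2 had log2 fold changes of −0.17 (adjusted p = 0.579) and −0.23 (adjusted p = 0.731 in edgeR's quasi-likelihood test). Among the transcription factors that act downstream of the receptor, the log2 fold change was 1.83 (SE 0.42) for Stat2, with adjusted p = 0.189 in edgeR. Irf9, its partner, had 1390 and 747 normalized counts in ctrl libraries, against 2982 and 3059 in those of Zfp276cko. Irf7, itself induced by interferon, had 782 and 116 normalized counts in the ctrl replicates and 4756 and 4617 in the Zfp276cko replicates. Of the list 15 genes were tested, 7 were higher at an unadjusted p of at most 0.05 with the thresholds above, 0 lower, and 0 passed the adjusted p in edgeR, while DESeq2 called 6. Over all genes the shares were 5.11% higher at the unadjusted threshold and 2.8% called higher by DESeq2. Jak1, a kinase of the receptor, was lowest of the signalling list with −0.26.

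All 40 genes of a list of interferon-stimulated genes were tested, of which 36 were higher at the unadjusted threshold, 0 were lower and 31 were called by DESeq2. Their median log2 fold change was 2.88, above that of every tested Schlafen member. The values ranged from 0.98 for Ifi44 to 5.28 for Rsad2, an antiviral enzyme with 258 and 195 normalized counts in ctrl OGCs, versus 8616 and 8912 in Zfp276cko OGCs. Of 18 interferon-induced effectors outside the family that act on RNA or translation, 4 of which (Ifit1, Ifit2, Ifit3 and Samd9l) are also in the list before, 17 were listed and tested, and 13 were higher at the unadjusted threshold and 13 by DESeq2. Their median was 2.49, and Ifit3 was highest with 4.98. EdgeR's quasi-likelihood test called 0 genes of either list after adjustment. Both lists were chosen with earlier results of these data known. Usp18 is in the list of interferon-stimulated genes and also in that of signalling genes.

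**Figure D4:**
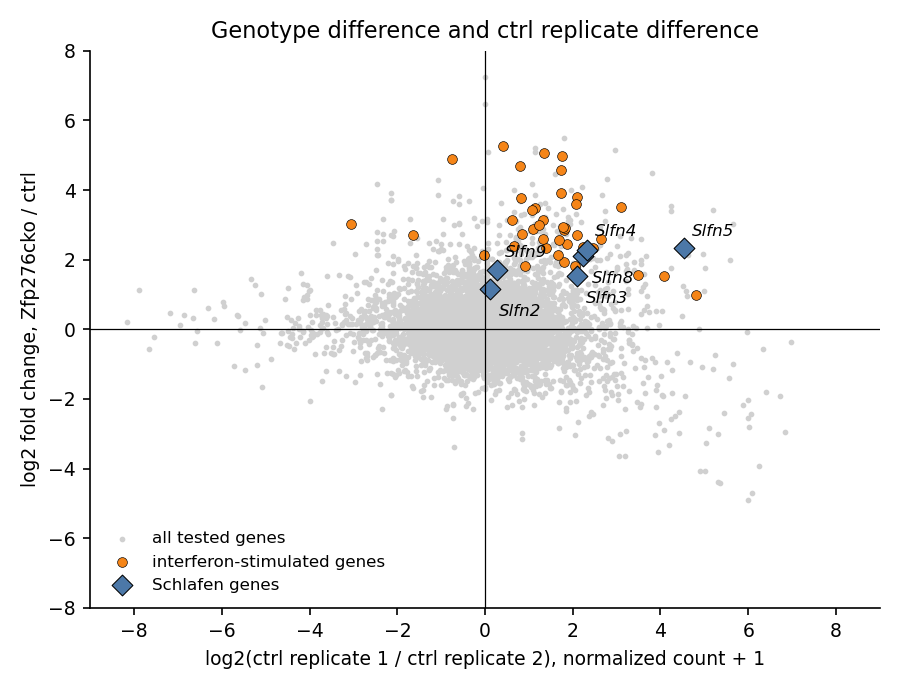
Log2 fold change between the genotypes against the log2 ratio of the ctrl replicates (normalized counts plus 1) for all tested genes (grey), interferon-stimulated genes (orange) and the 6 tested Schlafen genes (diamonds). Both axes use the ctrl libraries. Slfn2 and Slfn9 lie near a ctrl ratio of 0 (0.12 and 0.26), Slfn3, Slfn4 and Slfn8 near 2 and Slfn5 at 4.53.

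The difference between the ctrl libraries was shared by interferon-stimulated genes. Their median log2 ratio of ctrl replicate 1 over ctrl replicate 2 was 1.68, compared to −0.0045 over all tested genes, and ranged from −3.06 for Cxcl10 to 4.81 for Ifi44. The ratio was 0.12 for Slfn2 and 0.26 for Slfn9, and only 4 of the 40 interferon-stimulated genes had a lower value than either. Slfn3 had 2.10, Slfn8 2.24 and Slfn4 2.34. The ratios of Slfn3 and Slfn4 rest on 4 and 2 reads in ctrl replicate 2 and depend on the added count of 1. Slfn5 had 4.53, above 39 of the 40 genes. The family thus held members near the low end and near the high end of the list.

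Other markers also differed between the ctrl libraries. The 10 fibroblast and endothelial markers added up to 8244 normalized counts in ctrl replicate 1, 321 in ctrl replicate 2 and 480 and 427 in the Zfp276cko libraries. Neutrophil markers added up to 49.9 and 11.3 in ctrl libraries, against 50.7 and 39.5 in those of Zfp276cko, and 3 of their 8 genes were at 0 in all libraries. Lymphocyte markers added up to 55.8 and 34.9 in the ctrl replicates and 83.2 and 75.6 in the Zfp276cko replicates, with 2 of 10 at 0. Of the 18 microglia and macrophage markers, 2 were higher and 1 was lower at the unadjusted threshold, with a median log2 fold change of −0.01 and values between −1.22 for Fcrls and 0.99 for Cd68. Their median log2 ratio of ctrl replicate 1 over ctrl replicate 2 was 0.78. The fold changes are thus against unlike ctrl libraries and do not show that these markers were equal between the genotypes. Of the 12 oligodendrocyte markers, 10 were lower at this threshold and 0 higher, with a median of −0.82. The astrocyte markers added up to 39058 to 45618 and the neuron markers to 15592 to 24940 normalized counts per library. Map2 alone had 11607 to 18853 of the neuron sum. The median log2 ratio of ctrl replicate 1 over ctrl replicate 2 was −3.73 for the tested neuron markers. Stmn2, for example, had 26.1 and 390 normalized counts in ctrl and 307 and 302 in Zfp276cko libraries. The part of these cells in the Schlafen values was not tested. In bulk RNA, a different number of cells of a type and a different amount of RNA per cell cannot be told apart.

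**Figure D5:**
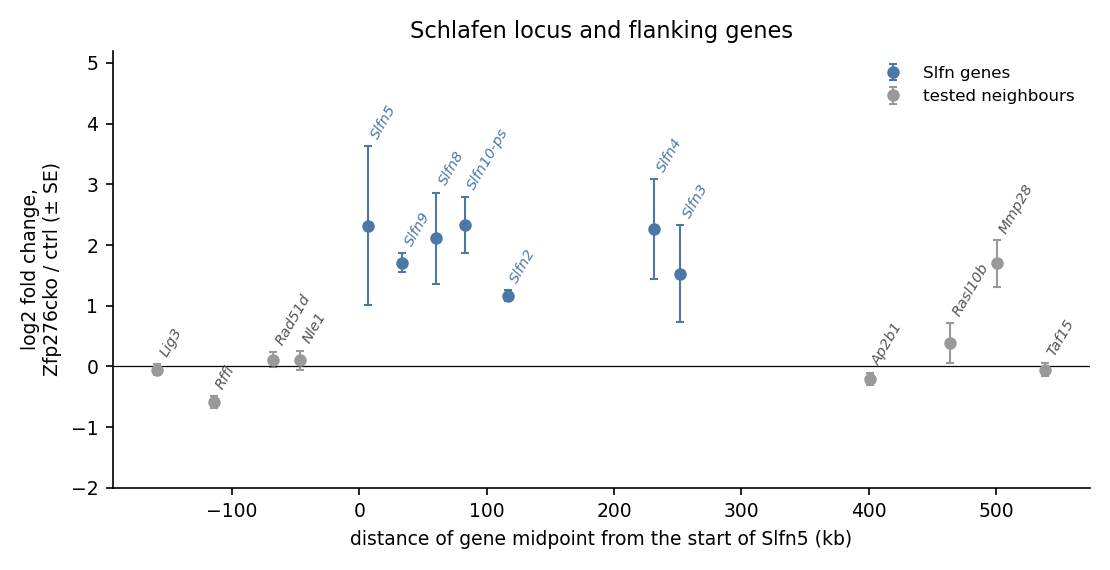
Log2 fold change (± SE) of the tested Schlafen genes (blue) and 8 tested genes of the neighbour list (grey), by distance of the gene midpoint from the start of Slfn5 in kilobases. The Schlafen genes lie between 1.17 and 2.33, and the closest grey point on the left, Nle1, at 0.10.

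Within the cluster Slfn10-ps, an annotated pseudogene, had 51 and 23 reads in ctrl and 237 and 258 in Zfp276cko libraries (log2 fold change 2.33, SE 0.46, adjusted p = 0.170 in edgeR's quasi-likelihood test and 0.00031 in DESeq2). Gm11427, an annotated pseudogene between Slfn3 and Slfn14, was not higher. It had 62 and 14 reads in ctrl and 28 and 25 in Zfp276cko libraries (log2 fold change −0.93, SE 0.78, adjusted p = 0.622 in edgeR's quasi-likelihood test). Slfn14 and the antisense gene Slfn5os had 0 reads in all 4 libraries, and Slfnl1, a related gene on chromosome 4, had 0, 1, 1 and 3. The nearest tested gene on the Slfn5 side, Nle1, had a log2 fold change of 0.10 (adjusted p = 0.793), and the nearest beyond Slfn3, AI662270, had −0.35 (adjusted p = 0.834). Of 12 neighbours 9 were tested, with a median of 0.08, and 1 was higher at the unadjusted threshold. This was Mmp28, a metalloproteinase gene with 7 and 11 reads in ctrl and 34 and 43 in Zfp276cko libraries (log2 fold change 1.70, adjusted p = 0.186). The lowest was Rffl with −0.59 (adjusted p = 0.134 in edgeR and 0.00981 in DESeq2).

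The methods name unique mappings, so that reads of stretches found in more than 1 gene may be missing from the counts. Stretches of 101 bases, the read length, that also occur in transcripts of another gene made up 3.58% of the longest Slfn8 transcript and 3.83% of that of Slfn9, mostly shared with Slfn10-ps. The share was 3.55% in Slfn3, where 92 of 97 stretches also occur in the pseudogene Gm11427. It was 0.233% in Slfn4, 0.064% in Slfn2 and 0% in Slfn1. In Slfn5 it was 6.80%, of which 387 of 400 stretches overlap with Slfn5os on the opposite strand. The strand setting of the counting is not given in the sources used here, so that reads of Slfn5 and Slfn5os are not told apart with certainty.

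The genes closest in pattern to the mean profile of the 6 tested members across the 4 libraries were Gm6548, Ccrl2, Ccl7, Tmem140 and 9330175E14Rik. Their distances were 0.103, 0.123, 0.132, 0.135 and 0.145, measured as Euclidean distance of centred log2 CPM values. Among the members, Slfn4 was closest to the mean profile with 0.597 and Slfn5 farthest with 2.53, so that the mean stands for no single member. Ccrl2, a chemokine receptor-like gene, had 146 and 51.8 normalized counts in ctrl OGCs, versus 372 and 376 in Zfp276cko OGCs. Ccl7, a chemokine of monocytes, had 101 and 32.6 in ctrl libraries, against 226 and 251 in those of Zfp276cko.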

How the data were processed

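RNA-Seq counts of 4 libraries (2 per genotype) were analysed. According to the methods, the authors mapped 101-base reads to mm10 with STAR 2.5.4a, counted unique mappings per Ensembl gene with HTSeq and compared genotypes with DESeq2. The deposited values are unnormalized whole-number counts; the submitters' processing notes name featureCounts 1.5.1 in addition. R 4.3.3, edgeR 4.0.16, limma 3.58.1 and DESeq2 1.42.0 were used. EdgeR's filterByExpr left 15766 genes, which were TMM-normalized and compared with the quasi-likelihood test and Benjamini-Hochberg adjustment. Thresholds for a call were 0.05 on the adjusted p, 0.6 on the log2 fold change in either direction and 20 on the mean normalized count. Exact permutation of 2 against 2 libraries cannot go below p = 0.333 (two-sided). Alternatives were other size factors, filters and tests, a replicate block and leaving out each library. Scripts were tested on simulated data. Named genes are the members and other Slfn genes, Zfp276, interferon pathway genes set by rule, the lowest and highest of each list, the neighbours and the 5 nearest in pattern. Cxcl10 was chosen after its values were seen, and a few genes under the rule are not reported here. Members and lists were chosen with earlier results of these data known. Likeness of pattern used a pseudocount of 0.5 CPM. Positions and exons came from GENCODE M21, upstream sequences from RefSeq, and identity from global alignment.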

Additional observations from a re-analysis of the deposited data

How the results depend on the processing

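Under the 11 alternatives no log2 fold change of a tested Schlafen gene changed sign. DESeq2 called 3 members, 31 interferon-stimulated genes, 6 interferon signalling genes, 13 RNA and translation effectors, 1 neighbour and 780 of all genes, and limma voom with quality weights per genotype called 2, 30, 5, 12, 0 and 205. Without a filter on low counts edgeR called 4 interferon-stimulated genes and 8 of all genes. Leaving out 1 library gave 0 to 6 members, 0 to 40 interferon-stimulated genes, 0 to 8 signalling genes, 0 to 17 effectors, 0 to 3 neighbours and 0 to 3078 of all genes, with every call made without a ctrl library. Zfp276 passed the threshold in DESeq2 (−1.98) and in limma voom (−1.95), and its log2 fold change was between −2.17 and −1.75 with 1 library left out. Without a ctrl library the spread is estimated from the Zfp276cko pair alone. The cause of the other differences was not tested. At least 10 counts in every library left 4 members to test, without Slfn3 and Slfn4. With a replicate block 0 members and 0 of all genes were called, and the log2 fold change of Slfn5 was 3.33. The labels give only a number, so that it is not known whether same-numbered libraries belong together. The correlation of their deviations was 0.00637. It cannot decide this, because the Zfp276cko libraries hardly differ from each other (0.307% of genes at least 2-fold apart). Slfn1, Slfn3 and Slfn4 are limited by their few reads and Slfn5 and Slfn8 by the spread between the ctrl libraries.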
